A study of Homo sapiens with 52 samples.

Results

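Both kinds of non-targeting control of the HS578T breast cancer line were compared: 3 libraries of cells carrying a non-targeting short hairpin RNA (shNT) and 3 libraries of cells given a non-targeting short interfering RNA (siNT). They were taken as the 6 HS578T columns with these names among the 52 samples of the series. HS578T is an established triple-negative line of the claudin-low subtype, and in neither group was NRP1, the receptor that the wider study knocked down, a target. The shNT cells were transduced with lentivirus made in HEK293T cells, selected for 3 days with 1 µg/mL puromycin, reseeded, and harvested after 48 h. The siNT cells were reverse transfected with 20 nM siRNA in a lipid reagent and harvested after 72 h, with no virus and no puromycin. All 6 libraries thus share the parental line and an intact NRP1 gene. Delivery route, drug selection, the medium during delivery, the non-targeting sequence, time in culture after seeding and passage history differ together between the groups, and their parts in any difference cannot be told apart. According to the methods, the shNT replicates are consecutive passages of transduced cells, so they are not separate transductions, and p-values measure the spread between these libraries.

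An siRNA acts through the cell's RNA interference machinery without entering the genome and is diluted as cells divide, whereas a lentiviral hairpin is integrated, transcribed and processed by the microRNA pathway. Lipid transfection and viral entry can each engage nucleic acid sensors and the interferon response, puromycin stops protein synthesis in cells that lack the resistance gene, and density and time since seeding set how many cells are copying DNA. Gene lists for these processes, and for the matrix-rich, mesenchymal character of HS578T, were therefore read side by side.

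The 6 libraries held from 30001734 (siNT replicate 1) to 57788696 (shNT replicate 1) expected counts, within the 25310443 to 72003442 of the whole series. Among the cell type markers, VIM, the intermediate filament of mesenchymal cells, stood at 6468 to 9317 CPM. CPM are read counts scaled to library size, with TMM factors from the 14 HS578T libraries of the fit. CDH1, the epithelial cadherin, lay between 0.0338 and 0.201 CPM. Luminal epithelial markers were not all low: KRT18 averaged 903 CPM with shNT and 81.0 CPM with siNT, and KRT8 72.4 and 207 CPM. Few markers of other cell types were called between the groups. Of 7 luminal epithelial markers 1 (KRT18) was higher and 1 (KRT8) lower with shNT. Of 4 endothelial markers tested 1 (TEK, at most 1.33 CPM) was higher, and the 1 haematopoietic marker tested was not called.

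Marker genes of the MDA-MB-231 line moved with the groups. Over 11 genes that were at or over 20 CPM in every MDA-MB-231 control, at or under 0.5 CPM in every SUM159PT control and at a median at or under 0.5 CPM in the 6 HS578T libraries, the median level was 0.0906%, 0.0756% and 0% of the MDA-MB-231 control level in shNT replicates 1 to 3, and 0.520%, 0.631% and 1.78% in siNT replicates 1 to 3. The groups did not overlap. Genes marking SUM159PT lay at or under 0.071% in all 6. KRT19, a keratin abundant in MDA-MB-231, moved in the same way: it stood at 0.336, 0.0677 and 0.223 CPM with shNT and 0.980, 1.16 and 5.17 CPM with siNT, against 240 CPM in MDA-MB-231 controls. Once the reads assigned to other lines in proportion to these markers were subtracted, the log2 fold change of KRT19 was -1.91 (adjusted p = 0.379). For other named genes at least 10 times higher in another line's controls, that line's level stands beside the value, and the source of these reads was not tested. The plot of marker levels shows the same 6 libraries beside the shNRP1#3 and siNRP1#3 libraries, in which NRP1 was targeted.

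**Figure D1:**
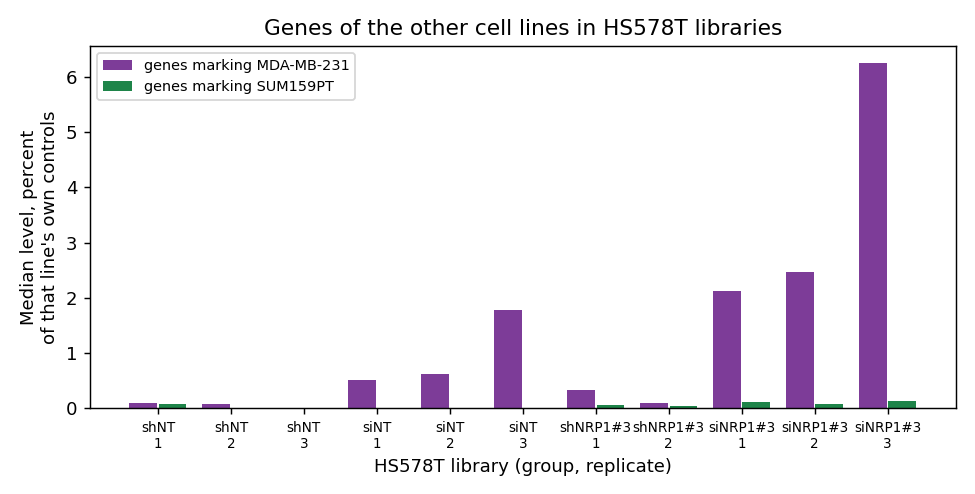
Median level of genes marking MDA-MB-231 (purple) and SUM159PT (green) in each HS578T library, as a percentage of their level in the non-targeting controls of the line they mark (y axis); libraries are on the x axis. The siNT libraries reach 1.78% and the siNRP1#3 libraries 6.25%, whereas no shNT library passes 0.0906%.

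Between the groups, 1669 of 19260 genes tested (8.67%) were higher with shNT and 1578 (8.19%) were lower (edgeR quasi-likelihood test, Benjamini-Hochberg adjusted p under 0.05). The median log2 fold change over all tested genes was 0.00. Counts of called genes in the lists and families below are to be read against these shares. Of the called genes, 1642 of the higher and 1523 of the lower had no overlap between the 3 shNT and the 3 siNT libraries. With 3 libraries in each group a call itself favours such genes, so these counts are no separate support. The share over all tested genes is not given. A change of at least 2-fold was found for 1229 higher and 1163 lower genes, and of at least 8-fold for 162 and 183. The calls depended on which library was left out. Without shNT replicate 2 or 3, 812 and 676, or 721 and 566, genes were higher and lower. Without siNT replicate 1 or 2 they numbered 799 and 891, or 590 and 650. Without shNT replicate 1 they rose to 1818 and 1693, and without siNT replicate 3 they were 1532 and 1528. No gene called with all 6 libraries changed sign in these. Of 159 genes chosen by a rule on call and size, 68 kept their call and sign under every alternative tried, among them KRT18, MCM10, GINS2, CDC6, MET, MT-RNR2, COL1A1, COL1A2, B2M, INSIG1, PDPN and NRP2 (and NRP1, as not called); the other 91 lost the call under at least 1. The plot of levels by library gives the genes that the following paragraphs turn on.

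**Figure D2:**
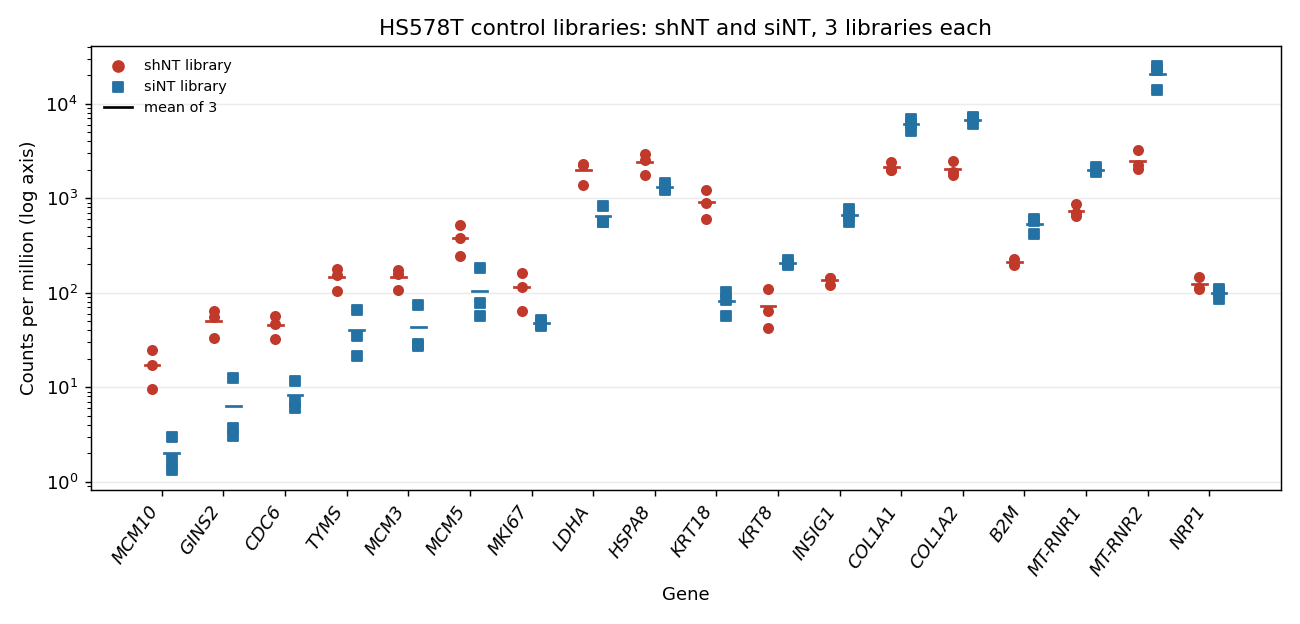
CPM on a log axis for 18 genes (x axis) in each shNT library (red circles) and siNT library (blue squares) of HS578T, with the mean of 3 as a short line. Replication genes, LDHA, HSPA8 and KRT18 lie higher with shNT, KRT8, INSIG1, the collagens, B2M and both mitochondrial ribosomal RNAs lie lower, and NRP1 overlaps between the groups.

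NRP1 itself, a co-receptor for semaphorins and VEGF, did not differ. Its level was 109, 111 and 148 CPM with shNT and 102, 86.6 and 110 CPM with siNT, so the groups overlapped (log2 fold change 0.31 ± 0.19 SE, adjusted p = 0.285). In the libraries labelled shNRP1#3 and siNRP1#3 NRP1 lay at 37.3 to 47.4 CPM in all 5 libraries.

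Genes of DNA replication formed the group with the most uniform difference. Of 29 tested, 20 were higher with shNT and 0 lower, and all 29 had a log2 fold change above 0 (RFC4 the lowest, at 0.00), with a median of 1.51 against 0.00 over all genes. MCM10, which helps activate the replicative helicase, stood at 9.54, 17.1 and 24.9 CPM with shNT and 1.34, 1.68 and 3.00 CPM with siNT (log2 fold change 3.09 ± 0.55, adjusted p = 0.00352). GINS2, a subunit of that helicase, stood at 33.3, 63.5 and 55.2 CPM against 3.04, 3.69 and 12.5 CPM (2.98 ± 0.56, adjusted p = 0.0045). CDC6, which licenses origins, stood at 32.1, 47.2 and 57.0 CPM against 7.02, 6.10 and 11.7 CPM (2.46 ± 0.44, adjusted p = 0.00345). In each of the 3 genes every shNT library lay above every siNT library, as the rule by which they were named required. In each, siNT replicate 3 was the highest of its group. MCM5, a subunit of the helicase ring, was higher by 1.86 on the log2 scale, and TYMS, which makes thymidylate, by 1.85. CCNE2, a cyclin of S-phase entry, was higher by 1.65. The smallest differences called were those of PCNA, the sliding clamp, at 1.01, and RRM1, the large subunit of ribonucleotide reductase, at 0.96. MCM7, at 366 to 860 CPM with shNT and 290 to 613 CPM with siNT, overlapped and was not called. In bulk RNA, a larger share of cells in S phase and more of these transcripts per cell cannot be told apart. Without shNT replicate 2 or 3, 9 and 8 of the 29 were called, and without siNT replicate 1 or 2, 8 and 7, with 0 lower in each.

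Many replication promoters carry binding sites for E2F factors, the activators of S-phase genes, so the 250 bases before the start site of 3 called genes that hold an E2F-type word are shown, with MCM10, which holds none, for contrast. The words TTTCCCGC, TTTCGCGC, TTTGCCGC and TTTGGCGC were searched on both strands; capitals mark a match, and a word on the opposite strand appears as its reverse complement. Sequences are RefSeq promoters on GRCh38.p14, 5′ to 3′ on the gene's strand: GINS2 at chr16:85688955-85689204 (minus strand), TYMS at chr18:657403-657652 (plus), MCM3 at chr6:52284743-52284992 (minus) and MCM10 at chr10:13161308-13161557 (plus).
GINS2: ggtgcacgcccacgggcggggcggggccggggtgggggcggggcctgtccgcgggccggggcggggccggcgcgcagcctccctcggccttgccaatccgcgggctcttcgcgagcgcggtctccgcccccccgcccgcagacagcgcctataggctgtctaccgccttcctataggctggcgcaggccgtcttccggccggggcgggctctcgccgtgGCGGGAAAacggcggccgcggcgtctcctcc
TYMS: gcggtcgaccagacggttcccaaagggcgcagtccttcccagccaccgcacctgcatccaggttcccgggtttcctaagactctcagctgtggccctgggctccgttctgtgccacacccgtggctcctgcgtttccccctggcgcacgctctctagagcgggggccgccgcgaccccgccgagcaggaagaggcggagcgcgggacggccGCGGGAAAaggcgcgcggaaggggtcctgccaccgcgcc
MCM3: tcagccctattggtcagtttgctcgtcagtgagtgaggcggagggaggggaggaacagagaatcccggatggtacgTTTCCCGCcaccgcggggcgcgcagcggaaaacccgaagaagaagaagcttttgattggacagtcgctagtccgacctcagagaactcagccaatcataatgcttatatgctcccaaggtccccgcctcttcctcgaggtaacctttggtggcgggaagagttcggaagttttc
MCM10: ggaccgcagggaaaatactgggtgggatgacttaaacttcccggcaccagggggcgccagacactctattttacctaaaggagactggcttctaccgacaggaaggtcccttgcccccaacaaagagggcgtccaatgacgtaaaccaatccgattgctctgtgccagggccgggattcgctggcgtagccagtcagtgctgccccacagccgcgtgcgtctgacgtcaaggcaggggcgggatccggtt
The match began 31 bases before the start site in GINS2, 39 in TYMS and 174 in MCM3. Of the called replication genes with a promoter in the table, 7 of 16 (43.8%) held a word, against 5 of 9 (55.6%) of those not called and 4.35% of the 12378 promoters of all tested genes. The share was no higher among the called members. Among all called genes 6.19% of the promoters of the higher and 3.99% of those of the lower held a word. TYMS itself stood at 104, 155 and 177 CPM with shNT and 21.5, 34.8 and 65.0 CPM with siNT, and MCM3, another helicase subunit, at 106, 156 and 175 CPM against 27.6, 28.5 and 73.8 CPM.

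E2F2, chosen for mention after its values were seen, is one of the activating E2F factors and had a larger difference than any gene of the list: 7.61, 20.0 and 17.9 CPM with shNT against 0.261, 0.653 and 1.93 CPM with siNT (log2 fold change 3.98 ± 0.73, adjusted p = 0.00388). E2F1 did not pass the threshold (1.85 ± 0.61, adjusted p = 0.0502) although its libraries did not overlap. Both factors were lowest in siNT replicate 1.

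Of 25 mitotic genes 2 were higher and 0 lower, with a median of 0.46, a share near the 8.67% of all genes. With 1 library left out, 0 (without shNT replicate 2, shNT replicate 3 or siNT replicate 2) to 6 (without shNT replicate 1) were higher, with 1 higher without siNT replicate 1, and 2 lower without siNT replicate 3. The 2 were CENPF, a kinetochore protein, and MKI67, the proliferation marker, which stood at 64.5, 114.3 and 163 CPM against 52.0, 44.4 and 46.8 CPM (1.25 ± 0.33, adjusted p = 0.0211). CCNB1, the mitotic cyclin, overlapped between groups at 140, 324 and 310 CPM with shNT and 132, 169 and 233 CPM with siNT. TOP2A overlapped too, with siNT replicate 1 the highest library at 205 CPM. Of 21 canonical histone genes 2 were higher (H4C8 and H2AC13, both under 1 CPM) and 0 lower, again a share near that of all genes. Histone messages of this class lack a poly(A) tail and the libraries were poly(A) enriched.

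Families of RNA processing, proteasome and chaperonin genes were picked by symbol after the values had been seen, so their counts are a description. They are to be read against 8.67% higher and 8.19% lower over all genes. No counts with 1 library left out are given for them. Of 23 hnRNP genes 10 were higher and 0 lower, with a median of 0.66. HNRNPM, which regulates splicing, stood at 170, 171 and 219 CPM with shNT and 44.4, 30.2 and 47.1 CPM with siNT (2.20 ± 0.22, adjusted p = 0.000201). Among 11 SR splicing factors 5 were higher and 1 lower; SRSF1 was higher by 2.07 (adjusted p = 0.00222). Of 37 proteasome subunits 13 were higher, among them PSMD1 of the regulatory particle by 1.31, and 0 lower. Of 9 subunits of the TRiC chaperonin, which folds actin and tubulin, 5 were higher and 0 lower.

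In the fixed list of metallothioneins and heat shock genes, 5 of 14 were higher and 0 lower, with a median of 0.72. HSPA8, the constitutive HSP70, stood at 1770, 2535 and 2943 CPM against 1275, 1457 and 1225 CPM (0.87 ± 0.23, adjusted p = 0.0211). HSP90AA1 was higher by 1.16, HSPH1 by 1.14, MT1E by 0.84 and DNAJB1 by 0.72. HSP90AB1, outside that list, was higher by 0.80. Without shNT replicate 2, shNT replicate 3 or siNT replicate 2 the list had 0 calls, and 1 without siNT replicate 1 or 3. Of 34 glycolysis and hypoxia genes 6 were higher and 1 lower (median 0.43). LDHA, which turns pyruvate into lactate, stood at 2237, 1366 and 2299 CPM against 555, 563 and 825 CPM (1.60 ± 0.33, adjusted p = 0.00625), PGAM1 was higher by 1.24, PGK1 by 1.26 and PDK1 by 1.35. GAPDH, at 8311 to 11187 CPM with siNT, was higher by 0.77 with shNT and TPI1 by 0.88. The 1 lower gene was SLC2A3, a glucose transporter, at -1.25, with 144 CPM in SUM159PT and 46.7 CPM in MDA-MB-231 controls. This list had 3, 2, 2 and 1 higher members without shNT replicate 2, shNT replicate 3, siNT replicate 1 and siNT replicate 2, in that order.

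KRT18 had the largest log2 fold change among the genes taken by rule as the 15 that were higher by the most. This type I keratin stood at 1213, 891 and 604 CPM with shNT and 56.7, 84.4 and 102 CPM with siNT (3.48 ± 0.37, adjusted p = 0.000352). KRT8, the type II keratin with which it pairs into filaments in simple epithelia, differed the other way: 110, 64.7 and 42.2 CPM with shNT and 200, 224 and 197 CPM with siNT (-1.52 ± 0.39, adjusted p = 0.0188). Neither gene's groups overlapped, which the naming rule required of KRT18 but not of KRT8. Per length, KRT18 was at 780 ± 243 TPM (SD, n = 3) and KRT8 at 60.4 ± 22.6 TPM with shNT, whereas with siNT they were at 68.7 ± 15.0 and 138 ± 7.95 TPM, so the order of the pair turned between the groups. KRT18 has many near-identical processed copies that can share its reads, and its values are uncertain to that extent. Of the 21 tested genes in the epithelial junction and keratin list, 1 was higher and 3 lower. The other lower genes, KRT19 and CLDN4, were at 240 and 163 CPM in MDA-MB-231 controls, and neither was called once reads of other lines were subtracted.

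Receptors and signalling genes were among those most higher with shNT. MET, the receptor for hepatocyte growth factor, stood at 65.3, 96.7 and 124 CPM against 16, 16 and 14.3 CPM (2.63 ± 0.36, adjusted p = 0.00127). EFNB2, a membrane ligand of Eph receptors, stood at 5.80, 13.9 and 18.3 CPM against 1.60, 1.48 and 2.10 CPM, and JAG1, a Notch ligand, at 157, 117 and 121 CPM against 29.8, 48.4 and 59.7 CPM. In all 3 genes the lowest shNT library lay above the highest siNT library, which the naming rule required of MET and EFNB2 but not of JAG1. DKK1, an inhibitor of Wnt signalling and at 160 CPM in MDA-MB-231 controls, was higher by 2.60 ± 0.75 (adjusted p = 0.0306). SLC26A4, an anion exchanger, was higher by 3.27, CALHM5, of the calcium homeostasis modulator channel family, by 2.7, AOX1, an aldehyde oxidase, by 2.56, and NCOA5, a nuclear receptor coregulator, by 2.42. ATF5, a stress-linked transcription factor, varied widely within shNT, at 21.3, 113.8 and 73.9 CPM, against 10.4, 13 and 17.2 CPM (2.37 ± 0.58, adjusted p = 0.0147). ZNF488 was higher by 2.36, the long noncoding RNA DUBR by 2.43 and PCDH7 by 2.40. ABCG2, a drug export pump, was the 1 of 6 pump genes called, at 6.69, 4.23 and 3.53 CPM against 1.31, 1.08 and 1.03 CPM. DGCR8, partner of Drosha in microRNA processing, was the 1 of 13 genes of the RNA interference machinery called, at 26.5, 47.5 and 40.8 CPM against 13, 8.27 and 10.4 CPM (1.86 ± 0.30, adjusted p = 0.00247). DICER1 (adjusted p = 0.775), AGO2 (0.224) and DROSHA (0.475) were not called, each with overlapping libraries. For this list 1 of 13 is a share near the 8.67% higher over all genes.

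Both mitochondrial ribosomal RNAs were lower with shNT. MT-RNR2, the large ribosomal RNA of the organelle, stood at 3227, 2033 and 2227 CPM with shNT and 22489, 24992 and 13977 CPM with siNT (-3.04 ± 0.45, adjusted p = 0.00178). MT-RNR1, the small ribosomal RNA, stood at 871, 692 and 654 CPM against 1943, 2153 and 1916 CPM (-1.44 ± 0.29, adjusted p = 0.00572). Together they took 0.254% to 0.401% of the shNT counts and 1.40% to 2.56% of the siNT counts. Of the 13 mitochondrial mRNAs 2 were higher and 0 lower: MT-CO3, a subunit of cytochrome oxidase, by 1.01, and MT-ND1, a subunit of complex I, by 0.89. The other 11 were not called, and the number higher was 0 without shNT replicate 3 or siNT replicate 1, 1 without shNT replicate 2 or siNT replicate 2, 4 without shNT replicate 1 and 5 without siNT replicate 3. The mRNAs took 2.33% to 2.53% of shNT counts and 1.56% to 2.47% of siNT counts, so these ranges overlapped. The libraries were poly(A) enriched, and nuclear copies of these genes can share their reads.

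**Figure D3:**
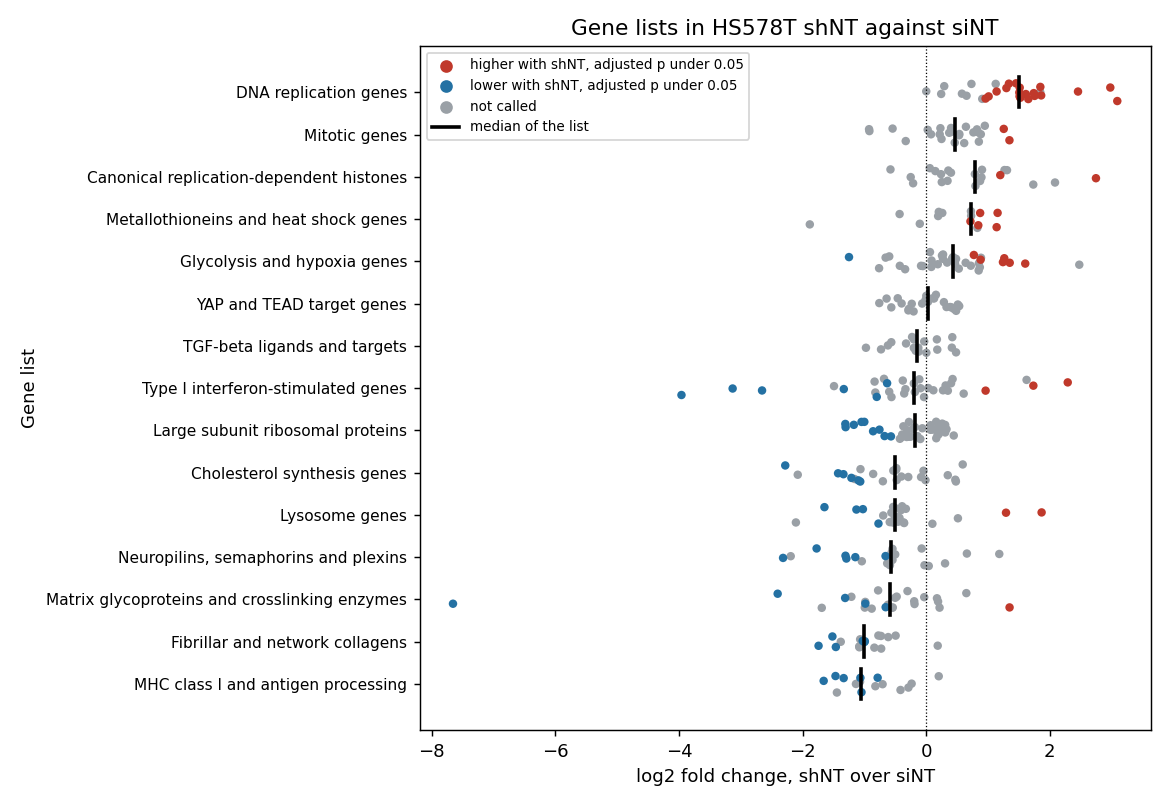
log2 fold change of shNT over siNT (x axis) for every tested member of 15 gene lists (y axis), with called members in red (higher with shNT) or blue (lower) and the median of each list as a black line. The DNA replication list lies wholly above 0, whereas collagens and MHC class I genes lie almost wholly below it.

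Collagen genes lay mostly below 0. Of 17 fibrillar and network collagens 6 were lower and 0 higher, with a median of -1.0. COL1A1 and COL1A2, the chains of type I collagen, stood at 2397, 1971 and 1984 CPM against 6117, 5117 and 6954 CPM (-1.52 ± 0.33, adjusted p = 0.00858) and at 2455, 1756 and 1880 CPM against 7008, 6075 and 7287 CPM (-1.74 ± 0.35, adjusted p = 0.00572). COL18A1 had a log2 fold change of -1.46, COL5A2 -1.03, COL4A1 -1.0 and COL6A3 -0.99. COL3A1 had -1.38 and did not pass (adjusted p = 0.0837). SERPINH1, the collagen chaperone, stood at 1128, 968 and 726 CPM against 2180, 2301 and 2646 CPM (-1.34 ± 0.30, adjusted p = 0.0101). Leaving out each library in turn left 3 to 5 collagens called, with 5 without shNT replicate 1, 4 without siNT replicate 2 and 3 without any other.

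Among 26 matrix glycoproteins and crosslinking enzymes 5 were lower and 1, MFAP5, higher. LUM, a small proteoglycan, varied widely within siNT, at 222, 138 and 28.4 CPM, and overlapped with shNT at 40.3, 12.5 and 20.5 CPM. LAMB1, a laminin chain, had -0.98 and LAMA4 -1.31. LOXL4, a lysyl oxidase, was at 0 in all 3 shNT libraries and at 0.294, 0.0251 and 1.39 CPM with siNT, against 53.6 CPM in MDA-MB-231 controls, and was not called after subtraction of other lines' reads (adjusted p = 0.0638). Of 20 matrix proteases and inhibitors 2 were lower and 0 higher, a share near the 8.19% lower over all genes. MMP14, the membrane-bound activator of MMP2, stood at 208, 229 and 188 CPM against 677, 646 and 857 CPM (-1.80 ± 0.27, adjusted p = 0.00196), and MMP2 had -0.99. The matrix glycoprotein list had 2, 1, 2, 3 and 4 lower members without shNT replicate 2, shNT replicate 3, siNT replicate 1, 2 and 3.

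Of 15 genes of MHC class I and antigen processing 6 were lower with shNT, 9 were not called and 0 were higher. In all, 14 lay below 0, and the median was -1.05. B2M, the invariant light chain, stood at 230, 198 and 201 CPM against 571, 599 and 416 CPM (-1.34 ± 0.20, adjusted p = 0.00189). TAP1, a subunit of the peptide transporter, stood at 29.8, 17.8 and 8.79 CPM against 53.5, 61.3 and 63.4 CPM (-1.66 ± 0.45, adjusted p = 0.0243). HLA-E had -1.47, the loading factor TAPBP -1.05 and the trimming peptidase ERAP1 -0.79. HLA-B (-1.45, adjusted p = 0.0743) and HLA-C (-1.14, adjusted p = 0.0999) did not pass. HLA genes are alike in sequence and can share reads. The count was 8 without shNT replicate 1, 3 without shNT replicate 2, 2 without shNT replicate 3, and 4, 3 and 4 without siNT replicates 1 to 3.

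Interferon-stimulated genes had no common direction. Of 32 tested 3 were higher, 6 lower, and the median was -0.19. IFITM1, an antiviral membrane protein, stood at 53.3, 7.35 and 11.9 CPM with shNT against 251, 242 and 144 CPM (-3.13 ± 0.85, adjusted p = 0.0233). BST2, or tetherin, had -0.80, MX2 -1.33 and STAT2 -0.63. IFI44L had -2.66, but siNT replicate 3, at 0.381 CPM, lay below shNT replicate 1, at 0.389 CPM. HERC5 was at most 0.0497 CPM with shNT and 0.098, 0.251 and 0.517 CPM with siNT, and 29.6 CPM in MDA-MB-231. After subtraction of other lines' reads HERC5 was too low to be tested. SAMD9 was higher by 2.29 (12.4, 6.91 and 12.9 CPM against 3.98, 2.03 and 0.599 CPM), its paralogue SAMD9L by 1.73, and IFIT3 by 0.96. IFIT3 stood at 104 CPM in MDA-MB-231 and 112 CPM in SUM159PT controls and was not called after subtraction (adjusted p = 0.0591). The list had 0 higher members without shNT replicate 3 or siNT replicate 2 and 2 lower members without shNT replicate 2 or 3. Of 20 nucleic acid sensors and adaptors MAVS and SAMHD1 were higher and DHX58 lower, against 8.67% higher and 8.19% lower over all genes.

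Of 19 cytokines and chemokines tested 6 were lower and 0 higher, and most of the 6 sat near the detection limit. IL24 was listed at 0.0177, 0 and 0.0248 CPM with shNT and at 2.35, 2.09 and 1.20 CPM with siNT (adjusted p = 0.000352), and it was still called after the reads of other lines were subtracted (adjusted p = 0.00112). CSF1, the macrophage growth factor, stood at 87.0, 76.4 and 57.3 CPM against 166, 170 and 324 CPM (-1.58 ± 0.35, adjusted p = 0.00924). TNFSF10, at 0.294, 0.151 and 0.871 CPM with siNT and 30.4 CPM in MDA-MB-231, was not called after subtraction (adjusted p = 0.0726). CXCL1 and CSF3, at 0 in all 3 shNT libraries and at most 0.436 and 0.163 CPM with siNT, were then too low to be tested; they were at 20.4 and 10.6 CPM in MDA-MB-231. IL1A was at most 0.0531 CPM with shNT and at most 0.735 CPM with siNT, and stood at 21.8 CPM in MDA-MB-231. After subtraction 3 of 17 cytokines tested were lower. Of 14 NF-kB subunits and feedback genes 3 were lower: RELB at 16.5, 9.44 and 5.64 CPM against 48.5, 42.0 and 45.1 CPM (-2.10 ± 0.45, adjusted p = 0.00805), NFKB2 at -1.03, and ICAM1 at -2.52, with 268 CPM in MDA-MB-231. ICAM1 was still called after subtraction (-2.27, adjusted p = 0.0202).

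Counts for the lipid and lysosome lists are set against 8.67% higher and 8.19% lower over all genes. Of 24 cholesterol synthesis genes 6 were lower and 0 higher, with a median of -0.51. INSIG1, which holds the SREBP activating complex in the endoplasmic reticulum and is itself an SREBP target, stood at 122, 145 and 142 CPM against 565, 648 and 773 CPM (-2.28 ± 0.40, adjusted p = 0.00332). IDI1 had -1.43, MSMO1 -1.34, SQLE, a rate-limiting epoxidase, -1.21, FDFT1, or squalene synthase, -1.10, and the master regulator SREBF2 -1.07. The count was 4 and 2 without shNT replicates 2 and 3, and 5, 3 and 7 without siNT replicates 1 to 3. Of 18 genes of fatty acid synthesis and lipid storage 4 were lower, among them FASN at -0.94 and ACSS2 at -1.32; 3 were lower without shNT replicate 1, 1 without shNT replicate 3 and 2 without any other library. Of 26 lysosome genes 4 were lower, including NPC1, which exports cholesterol from lysosomes, at 47.1, 59.7 and 55.3 CPM against 110, 119 and 126 CPM, and 2, among them the channel MCOLN1, were higher. The lower lysosome genes numbered 1 without shNT replicate 3, 2 without siNT replicate 1 or 3, and 3 without any other library. Of 8 genes in the list for LXR and sterol export 1 was lower, NR1H2, which encodes an LXR receptor itself, and the other 7 were not called. For that list, and for the higher lysosome genes, the shares were near those of all genes.

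In the receptor family of NRP1, 6 of 20 neuropilin, semaphorin and plexin genes were lower with shNT and 0 higher. NRP2, the paralogue of NRP1, stood at 18.4, 11.6 and 14.7 CPM against 56.0, 38.5 and 58.5 CPM (-1.77 ± 0.30, adjusted p = 0.00287), while NRP1 was not called. SEMA6B, a transmembrane semaphorin, stood at 45.1, 25.3 and 16 CPM against 121, 135 and 174 CPM. SEMA3F, a secreted ligand that binds NRP2, had -1.31, and the receptors PLXND1, PLXNB1 and PLXNA3 had -1.29, -1.15 and -0.66. With 1 library left out the number of lower genes ran from 1 (without shNT replicate 2 or 3) through 2 (without siNT replicate 2) and 3 (without siNT replicate 1 or 3) to 7 (without shNT replicate 1).

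The named genes that were lower by the most held several cell-surface and secreted proteins. PDPN, a sialoglycoprotein of mesenchymal and lymphatic cells, stood at 9.68, 9.92 and 9.09 CPM against 97.1, 75.1 and 62.4 CPM (-3.03 ± 0.26, adjusted p = 7.59e-05). ANGPTL2, a secreted angiopoietin-like factor, stood at 2.46, 2.30 and 2.56 CPM against 53, 37.8 and 30.2 CPM (-4.04 ± 0.35). The shNT libraries of both genes lay within a narrow range. NRXN2, a neurexin, and NTNG2, a netrin-like membrane protein, had -3.03 and -3.17, and VGF, a secreted neuropeptide precursor, stood at 3.36, 3.45 and 2.83 CPM against 31.7, 26.6 and 23.5 CPM (-3.08 ± 0.29). TXNIP, which binds thioredoxin and responds to glucose, stood at 14.2, 3.89 and 6.73 CPM against 112, 54.6 and 52.1 CPM (-3.12 ± 0.56, adjusted p = 0.00345). PTP4A3, a phosphatase, had -3.75, CHI3L1 (160 CPM in SUM159PT controls) -3.34, CEBPD -3.08, KLRC2 -3.04, NAT16 -3.03 and the leptin receptor LEPR -3.02. PI15 had -4.30 but ran from 4.55 to 49.6 CPM within siNT. JAG2, a Notch ligand, was at most 0.0338 CPM with shNT and at 0.718, 1.03 and 0.572 CPM with siNT (adjusted p = 0.00247), and remained called after subtraction (adjusted p = 0.00256).

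The other lists are given by their counts, to be read against 8.67% higher and 8.19% lower over all genes. Of 39 large ribosomal subunit proteins 9 were lower and 0 higher; RPL30 stood at 1161, 1130 and 1173 CPM against 2207, 2749 and 1977 CPM, and 30 were not called. The count was 3 without shNT replicate 2 or siNT replicate 2, 4 without shNT replicate 3, 6 without siNT replicate 1 and 8 without either other library. Of 13 snoRNA host and translation-linked noncoding genes SNHG5, SNHG6 and SNHG8 were lower and NEAT1 higher. ATF4 and unfolded protein response genes had 3 lower of 24, among them CEBPB at -1.15 and DNAJB9 at -1.69, NRF2 targets 4 lower of 21, among them TKT at -1.33 and OSGIN1 at -2.27, and p53 targets 2 higher and 2 lower of 20, with BBC3 at -2.13 and TP53I3 at 1.21. Immediate early genes had 1 higher and 4 lower of 20, with ZFP36 at -1.63 and JUND at -1.32, and MAPK feedback genes 1 lower of 14, DUSP5. Wnt genes had 3 higher (DKK1, LGR5 and ROR1) and 1 lower (LRP5) of 26, Notch genes 1 higher and 3 lower of 15, and BMP and ID genes 1 higher of 16, ID3, at 330, 249 and 218 CPM against 65.9, 97.0 and 102 CPM. Growth factor receptors and ligands had 3 higher and 5 lower of 27, and 3 higher and 2 lower after subtraction. With 1 library left out, 2 NRF2 targets were lower without shNT replicate 2 or 3 or siNT replicate 1 or 2, 2 immediate early genes without shNT replicate 2 or 3 or siNT replicate 1, and 2 growth factor genes without shNT replicate 2 or 3 or siNT replicate 2. Of 22 contractile genes TPM1 and FHL2 were higher. EMT factors and mesenchymal markers had 2 higher (CDH2 and CDH11) and 2 lower (TWIST1 and SNAI1) of 13, and the claudin-low markers 1 higher and 2 lower of 12. None of 26 YAP and TEAD targets, 18 TGF-beta ligands and targets or 7 IGF binding proteins was called in the edgeR fit. DESeq2 called 1 YAP target, 0 TGF-beta genes and 1 IGF binding protein, all lower.

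By gene type, calls leaned in opposite directions. Of 14131 protein-coding genes 7.73% were higher and 9.20% lower, whereas of 4118 long noncoding RNAs 12.1% were higher and 6.02% lower, with a median log2 fold change of 0.24. Processed pseudogenes, of which 543 were tested, had 8.66% higher and 2.39% lower. Long noncoding RNAs took 1.20% to 1.34% of shNT counts and 1.09% to 1.26% of siNT counts, so the ranges overlapped. Across 4 bins of effective transcript length the median ran from 0.07 in the shortest to -0.04 in the longest. Only 2 genes with a symbol were at or under 0.1 CPM in every library of 1 group and at or over 1 CPM in every library of the other. These were IL24 and BLOC1S5-TXNDC5, a read-through transcript at 3.41, 2.03 and 1.66 CPM with shNT and listed at 0 with siNT, whose reads overlap those of its component genes.

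The same pair of delivery routes was available with NRP1 targeted, in 2 shNRP1#3 and 3 siNRP1#3 libraries. They share no library with the controls but share their delivery, selection and timing. Despite the common number, the methods give the hairpin and the siRNA different target sequences, so the target site differs in this contrast too and cannot be told apart from the route. In that contrast 2099 genes (10.9%) were higher with the hairpin and 2174 (11.3%) lower. Of the 1669 genes higher with shNT, 1569 (94.0%) had the same sign there, 945 were also called higher and 8 were called lower. Of the 1578 lower genes, 1493 (94.6%) had the same sign, 878 were called lower and 8 higher. Over all tested genes 74.0% had the same sign in both contrasts. The siNRP1#3 libraries held MDA-MB-231 markers at 2.13%, 2.48% and 6.25% and the shNRP1#3 libraries at 0.332% and 0.0974%, in the same direction as the controls. With genes at least 10 times higher in another line left out, 94.2% of 1654 higher and 94.3% of 1471 lower genes had the same sign. Without shNRP1#3 replicate 2, 838 genes were higher and 663 lower, without shNRP1#3 replicate 1 1290 were lower, and without siNRP1#3 replicate 1 1202 were higher and 1420 lower.

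Gene by gene, DNA replication was again higher with the hairpin (23 of 29 called, median 1.59), as were 15 of 25 mitotic genes. Collagens were lower in 11 of 17 and cholesterol synthesis genes in 12 of 24. MT-RNR2 stood at 4387 and 1890 CPM with shNRP1#3 against 23346, 24397 and 10149 CPM with siNRP1#3. KRT18 stood at 870 and 469 CPM against 110, 103 and 166 CPM (2.41, adjusted p = 0.0011), and KRT8 had -1.26 (adjusted p = 0.055). Some genes had values near 0 or of the other sign. JAG1, higher with shNT, was lower with shNRP1#3 (98.3 and 75.9 CPM against 156, 145 and 196 CPM, log2 fold change -0.92, adjusted p = 0.028). AOX1 and DKK1 had log2 fold changes of 0.24 and 0.09 there, and PI15, CHI3L1 and KLRC2, lower with shNT, had 2.23, 1.17 and 0.32, none of these 5 called. NRP2 had -0.61 (adjusted p = 0.20). The difference between the contrasts was not tested for these genes.

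**Figure D4:**
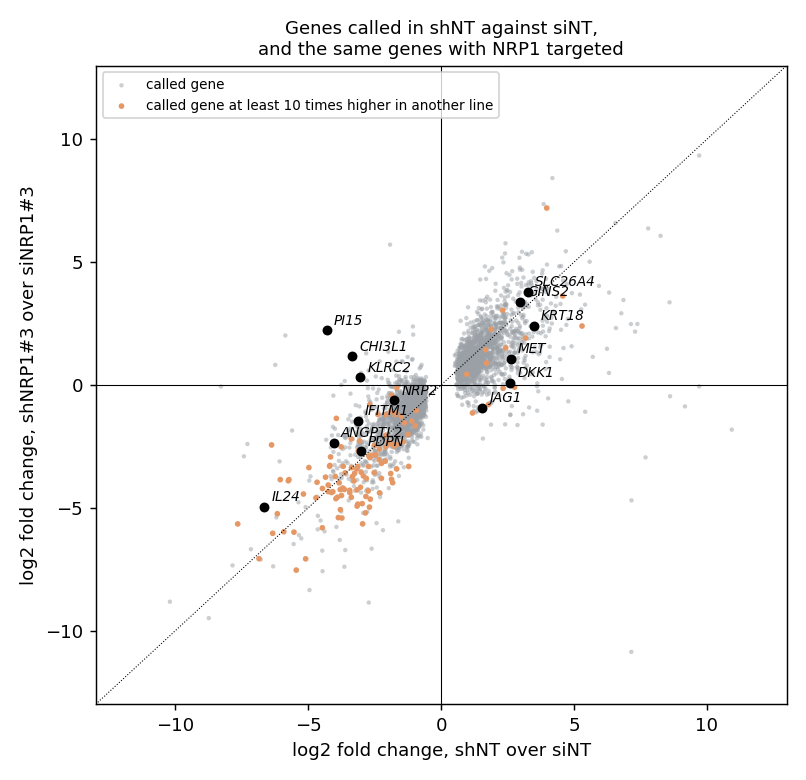
For the genes called in shNT against siNT, log2 fold change of shNT over siNT (x axis) and of shNRP1#3 over siNRP1#3 (y axis); orange points are at least 10 times higher in another cell line's controls, black points are labelled genes, and the dotted line marks equality. Most points share a sign (94.3% of 3247), with PI15, CHI3L1 and JAG1 among those that do not.

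The 6 controls of SUM159PT and the 6 of MDA-MB-231, prepared in the same 2 ways, were fitted together with those of HS578T. The HS578T difference departed from that of SUM159PT in 1133 of 20686 genes (5.48%) and from that of MDA-MB-231 in 1942 (9.39%), by the interaction term. Among 3186 genes called in HS578T and present in this fit, 80.9% had the same sign in SUM159PT and 63.1% in MDA-MB-231, and 555 and 1204 had a called interaction. Of the genes called in HS578T, 341 had a difference that departed from both other lines in 1 direction. DNA replication genes had median log2 fold changes of 1.47 in HS578T, 1.13 in SUM159PT and 0.17 in MDA-MB-231, with 0 of 29 interactions called against SUM159PT and 8 against MDA-MB-231. MCM10 had 3.05, 1.91 and 0.01 (interaction against MDA-MB-231 adjusted p = 0.00427, against SUM159PT 0.24). MT-RNR2 had -3.06, -2.39 and 0.04 (interaction against MDA-MB-231 adjusted p = 0.00238, against SUM159PT 0.464), and B2M had -1.36, -2.01 and -0.12 (0.00937 and 0.17). MET was higher with shNT in all 3 lines, by 2.59, 1.75 and 1.49, with no interaction called. In MCM10, MT-RNR2 and B2M the difference of SUM159PT lay nearer to that of HS578T than the difference of MDA-MB-231 did. Counts of called interactions fell to as few as 524 (without HS578T siNT replicate 2) against SUM159PT and 919 (without MDA-MB-231 siNT replicate 2) against MDA-MB-231, and rose to 3138 against the latter without HS578T shNT replicate 1.

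The keratin pair, NRP2, VGF, INSIG1 and SQLE were among the named genes in which the HS578T difference departed from both lines. On CPM scaled over the 18 control libraries, KRT18 was at 662 to 1404 with shNT and 64.6 to 116 with siNT in HS578T, at 592 to 667 and 410 to 510 in SUM159PT, and at 723 to 941 and 643 to 745 in MDA-MB-231. The siNT libraries of HS578T lay below every library of the other lines, and 2 of its 3 shNT libraries lay above every one of them. For KRT8 all 6 HS578T libraries, at 46.2 to 259, lay below every library of the other lines, which started at 601. NRP2 had a log2 fold change of -1.80 in HS578T, 0.40 in SUM159PT and 0.92 in MDA-MB-231 (interaction adjusted p = 0.0020 and 0.000383). VGF was at 26.8 to 36.1 CPM in the HS578T siNT libraries and at or under 4.52 in all other 15. INSIG1 had -2.31, -0.04 and -0.68 (interaction adjusted p = 0.00993 and 0.0309), and SQLE -1.24, 0.48 and -0.06 (0.00806 and 0.0324).

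**Figure D5:**
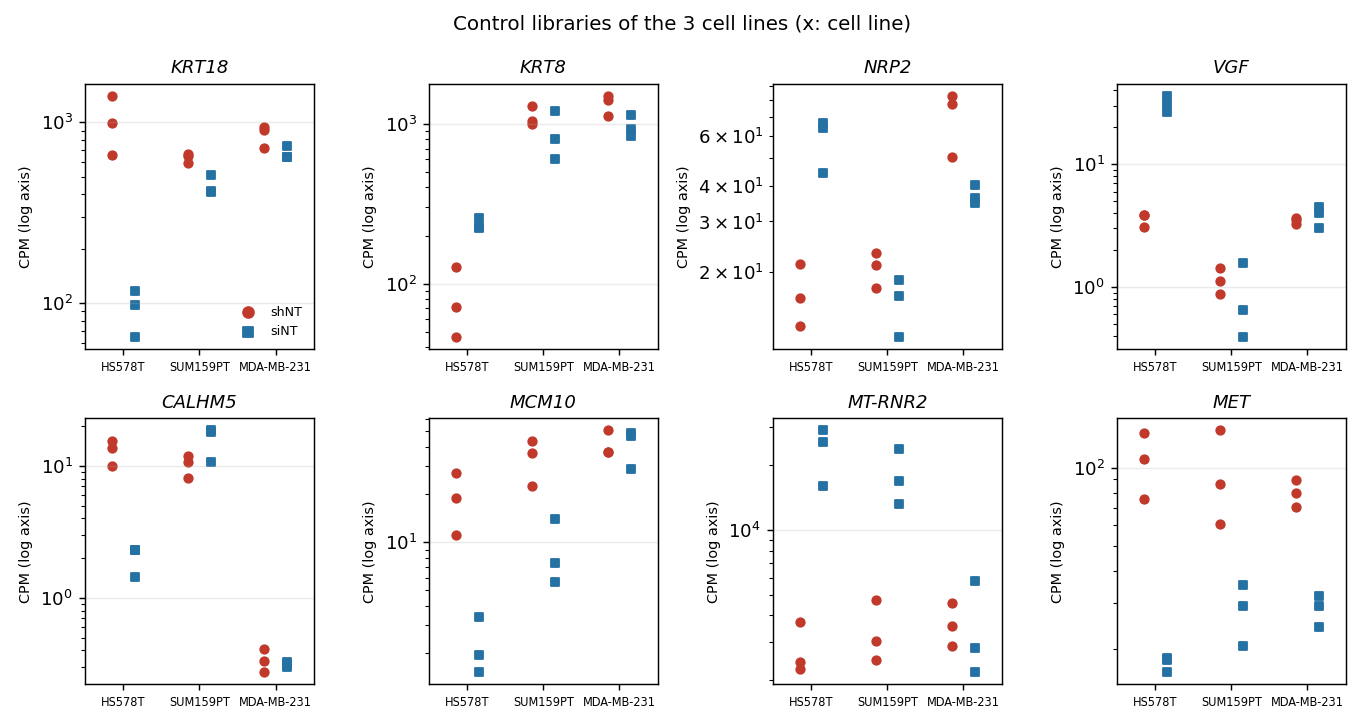
CPM on a log axis, scaled over the 18 control libraries, for 8 genes in shNT (red circles) and siNT (blue squares) libraries of HS578T, SUM159PT and MDA-MB-231 (x axis). KRT18 separates the groups in HS578T by far more than in the other lines, MT-RNR2 separates them in HS578T and SUM159PT, and MET separates them in all 3.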

How the data were processed

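The series holds stranded, poly(A)-enriched, paired-end RNA-seq of 52 samples. Per the labels and methods, the authors trimmed reads with Trim Galore 0.6.5, checked them with FastQC 0.11.9, aligned them with STAR 2.7.2b to GRCh38 and estimated gene levels with RSEM 1.3.3; the deposited gene table holds RSEM expected counts, which divide reads shared by similar genes, and a second deposited table holds TPM, used here only to compare 2 genes per length. Transcript tables were not used here. All columns were matched to samples by name.

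Expected counts were rounded and tested with edgeR 4.0.16 (R 4.3.3): filterByExpr, TMM, 1 mean for each group, robust quasi-likelihood test, Benjamini-Hochberg adjustment over all genes tested, threshold 0.05. The fit used the 14 HS578T samples other than siNRP1#5, left out because earlier results showed MDA-MB-231 RNA in unequal shares in its replicates; those samples share the estimate of spread. Standard errors are the log2 fold change over the root of F. The other lines' controls entered 1 fit of 18 samples with 6 means. The script was tested on simulated data. Genes named were the 15 with the largest change each way (called, no overlap, mean at least 1 CPM in both groups and 10 in the higher), the 10 with the largest CPM difference each way, up to 4 called genes for each list and direction, NRP1, and genes absent from 1 group; others are named as chosen after their values were seen or as further list members. The genes, lists and comparisons were chosen with earlier results of these data known, so none is independent support. Alternatives used limma 3.58.1 and DESeq2 1.42.0, other scalings, filters, sample sets, a replicate block, and each library left out. Subtraction of other lines' reads, and leaving out libraries in the other comparisons, were chosen after seeing the data. Depth was 30001734 to 57788696 expected counts for each library, and levels under 0.1 CPM rest on a handful of reads. The sequences of the non-targeting siRNA and hairpin were not analysed here. Some genes are not reported here.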

Additional observations from a re-analysis of the deposited data

Results flagged for a closer look

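The difference between shNT and siNT in HS578T departed from those of both SUM159PT and MDA-MB-231, in the same direction and past the threshold of the interaction test, for 18 of the named genes. Values are the log2 fold change of HS578T minus that of SUM159PT and then of MDA-MB-231. It was the larger in HS578T for KRT18 (2.95 and 3.11), the channel gene CALHM5 (3.29 and 2.56), ATF5 (2.20 and 2.18), the metallothionein MT1E (1.98 and 1.32), the lysosomal channel MCOLN1 (1.81 and 1.95) and PDK1, which restrains pyruvate oxidation (1.24 and 1.17). The HS578T value was the lower for VGF (-3.50 and -2.97), NRP2 (-2.19 and -2.71), INSIG1 (-2.27 and -1.63), SEMA6B (-2.15 and -1.84), KRT8 (-1.88 and -2.01), SQLE (-1.72 and -1.19) and NPC1 (-0.92 and -1.25). It was also lower for 5 genes at a higher level in MDA-MB-231 controls than in HS578T, which held for KRT8 as well. These were JAG2 (-4.89 and -6.44), KRT19 (-4.70 and -3.09), the EGFR ligands AREG (-4.35 and -3.40) and TGFA (-2.35 and -3.61), and CLDN4 (-1.31 and -1.68). Their levels in MDA-MB-231 controls were 7.55, 240, 22.3, 48.7 and 163 CPM, in that order. Of these last 5, JAG2 alone was still called in HS578T after subtraction of other lines' reads.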

How the results depend on the processing

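The count of 1669 higher and 1578 lower genes stayed within 1.5 times under other scalings, no filter, DESeq2 (2222 and 1974), limma-voom, other sample sets and removal of other lines' genes or reads, and moved with single libraries. With each library left out in turn, higher genes ran from 590 to 1818 and lower genes from 566 to 1693. The counts moved by over 1.5 times without shNT replicate 2 (812 and 676), shNT replicate 3 (721 and 566), siNT replicate 1 (799 and 891) or siNT replicate 2 (590 and 650). For shNRP1#3 against siNRP1#3 the ranges were 838 to 1818 and 663 to 2020, with such moves without either shNRP1#3 library or siNRP1#3 replicate 1. With 1 shNRP1#3 library, its spread was taken to equal that of other groups. Interactions ran from 524 to 1377 against SUM159PT and from 919 to 3138 against MDA-MB-231. Against SUM159PT they fell by over 1.5 times without HS578T shNT replicate 2 (712) or 3 (719), HS578T siNT replicate 1 (691) or 2 (524), and SUM159PT shNT replicate 1 (617) or 3 (584) or siNT replicate 1 (654). Against MDA-MB-231 such moves came without HS578T shNT replicate 1 (3138), 2 (1064) or 3 (1163), HS578T siNT replicate 2 (1072), any MDA-MB-231 shNT replicate (975 to 1203) and MDA-MB-231 siNT replicate 1 (1109) or 2 (919). No named gene reversed. The cause of these moves was not tested. Low genes of other lines, near 0.1 CPM, are where depth limits the values.

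The replicate numbers did not pair the libraries: deviations of the same-numbered shNT and siNT libraries correlated at 0.02, -0.08 and -0.14 across genes. A replicate block gave 2085 higher and 2140 lower genes, 2546 and 2775 with NRP1 targeted, and 790 and 1819 interactions.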

Other observations

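The 341 genes called in HS578T whose difference departed from both other lines in 1 direction include the named genes flagged above. The HS578T value was the higher for 159 of them and the lower for 182, and 42 of the 341 were at least 10 times higher in another line's controls. Small ribosomal subunit proteins split, with 3 of 31 higher and 8 lower with shNT, and of 13 tubulin genes 4 were higher and 0 lower. Over all genes 8.67% were higher and 8.19% lower. Both families were picked after the values were seen.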
